A study of Homo sapiens with 5 samples.

Results

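The genes examined were 10 that encode glycoproteins and elastic fibre proteins of scar matrix, FN1, TNC, POSTN, THBS1, THBS2, SPP1, SPARC, ELN, FBN1 and FBN2. They were chosen by name, and each TEAD4 ChIP-seq peak was assigned to a gene when its summit lay in the gene body or within 50 kb of any transcription start site (TSS) of the gene in GENCODE release 44 (hg38). By this rule 51 of the 21113 peaks in the list were assigned to 9 of the 10 genes, and THBS2 received none. The annotation held 20033 protein-coding genes in all.

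TEAD4 was immunoprecipitated from cross-linked chromatin of LX-2 cells, a line derived from human hepatic stellate cells, in 3 replicates that had all received the solvent DMSO, and input chromatin was sequenced as 2 samples. The peak list used here joins ChIP replicates 1 and 3, because replicate 2 was not concordant enough for the authors' analysis of reproducibility. It holds a position, a summit and a signal value for each peak but no value per replicate, so no spread between replicates could be given for any peak, and the depth of the samples is unknown. All samples came from 1 cell line in 1 condition, so the values describe where TEAD4 was called and do not compare conditions. Binding was measured, not expression, and a peak near a gene was not tested for an effect on it.

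TEAD proteins are the DNA-binding partners of YAP1 and TAZ, the coactivators held out of the nucleus when the Hippo kinases are active. In stellate cells YAP1 accumulates as the cells turn into matrix-producing myofibroblasts. The proteins encoded by these genes build the non-collagenous part of that matrix: fibronectin forms the early fibrillar scaffold, matricellular proteins tune how cells attach to it and how growth factors act, and elastin is laid down on microfibrils made of fibrillins.

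The sequences below surround the summit of the strongest peak of each gene, since these are the sites with the most TEAD4 signal. They are given 5′ to 3′ on the plus strand of hg38, and capitals mark a match on either strand to the TEAD core CATTCC, which reads GGAATG from the opposite one, or to the AP-1 motif TGANTCA. Where the core was preceded by A, the longer 7-base TEAD motif ACATTCC is in capitals. The summit at SPARC lay in a transcribed exon, so that stretch was cut to 30 bases placed around its motif matches. Its summit is base 3 of the 30, not the middle. The stretch at THBS1 stops at the base before the TSS.
FN1, 24821 bp upstream, chr2:215460844-215460944: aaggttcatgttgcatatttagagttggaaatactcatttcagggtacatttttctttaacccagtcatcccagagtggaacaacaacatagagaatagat
TNC, 28615 bp upstream, chr9:115146772-115146872: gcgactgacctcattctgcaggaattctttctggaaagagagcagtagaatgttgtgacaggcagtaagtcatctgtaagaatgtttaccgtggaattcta
POSTN, 18548 bp upstream, chr13:37617342-37617442: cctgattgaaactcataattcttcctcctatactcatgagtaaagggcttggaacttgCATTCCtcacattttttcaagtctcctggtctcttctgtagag
THBS1, 39 bp upstream, chr15:39580990-39581078: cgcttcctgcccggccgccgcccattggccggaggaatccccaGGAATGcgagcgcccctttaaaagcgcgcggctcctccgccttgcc
SPP1, 29078 bp downstream of the nearest SPP1 TSS, chr4:88008435-88008535: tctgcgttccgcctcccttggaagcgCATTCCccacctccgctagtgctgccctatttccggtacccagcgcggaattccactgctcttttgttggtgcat
SPARC, 154 bp downstream of an internal TSS, chr5:151685074-151685103: ctcgCATTCCtcggagagTGAGTCAggcag
ELN, 42043 bp downstream of the nearest ELN TSS, chr7:74094844-74094944: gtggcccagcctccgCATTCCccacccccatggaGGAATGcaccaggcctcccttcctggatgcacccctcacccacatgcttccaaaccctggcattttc
FBN1, 49460 bp upstream, chr15:48695131-48695231: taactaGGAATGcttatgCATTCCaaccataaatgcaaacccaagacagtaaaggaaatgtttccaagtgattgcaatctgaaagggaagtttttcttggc
FBN2, 41106 bp upstream of the nearest TSS, chr5:128579301-128579401: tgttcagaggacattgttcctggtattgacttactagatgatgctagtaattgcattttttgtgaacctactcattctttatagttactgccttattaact

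Of these 9 stretches, 6 held the TEAD core, whereas those of FN1, TNC and FBN2 held none. None of the 9 carried the full ACATTCC. Within 100 bp of the summit, 46.8% of the whole list held CATTCC and 23% held ACATTCC. The stretches shown were shorter than that and unequal in length, so the counts and shares are not like for like. The TNC stretch held AGAATGT, the reverse complement of ACATTCT, at 2 places, a variant that was looked up after its sequence had been seen. Within 100 bp of the summit, ACATTCT was found in 5 of the 51 peaks (9.8%), against 10.3% of the whole list. Among the strongest 10% of the list it was found in 2 of 8 assigned peaks, against 13.5%, and 8 peaks are too few to compare. Its presence at TNC is therefore not shown to stand in for the core. At SPARC the core and an AP-1 match lay within the same 30 bases, but that stretch was placed around these matches.

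The 7-base motif was found at 2 peaks within 2.5 kb of a TSS, one at SPARC and one at ELN. Their sequences are shown because they join a motif, a peak and a promoter. The SPARC stretch was again cut to 30 bases placed around its match.
SPARC, 24 bp upstream, chr5:151686915-151686944: tgaaggaccgcgGGAATGTggaggggttta
ELN, 832 bp upstream, chr7:74026907-74027007: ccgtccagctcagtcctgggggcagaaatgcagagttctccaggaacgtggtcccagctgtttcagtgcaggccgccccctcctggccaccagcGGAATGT

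At least 1 peak was assigned to 9 of the 10 genes, where the same rule gave a peak to 56.2% of all protein-coding genes. The peaks of the 10 genes were spread unevenly. Fibronectin received 3, the 6 matricellular genes 27 and the 3 elastic fibre genes 21. FBN1 had 15 peaks, TNC 8, SPARC 7, THBS1 5, SPP1 and FBN2 4 each, FN1 and POSTN 3 each and ELN 2, against a median of 1 and an upper quartile of 2 over all protein-coding genes. Overlap between peaks adds to these counts. Of the 51 peaks, 14 (27.5%, Wilson 95% interval 17.1% to 40.9%) overlapped another peak, compared with 15.9% of the whole list. Once overlapping peaks were merged, the 51 formed 44 regions, with a median of 4 per gene against 1 over all protein-coding genes. The number of peaks depends on how much sequence is searched, so the plot of peaks against window length sets both side by side.

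**Figure D1:**
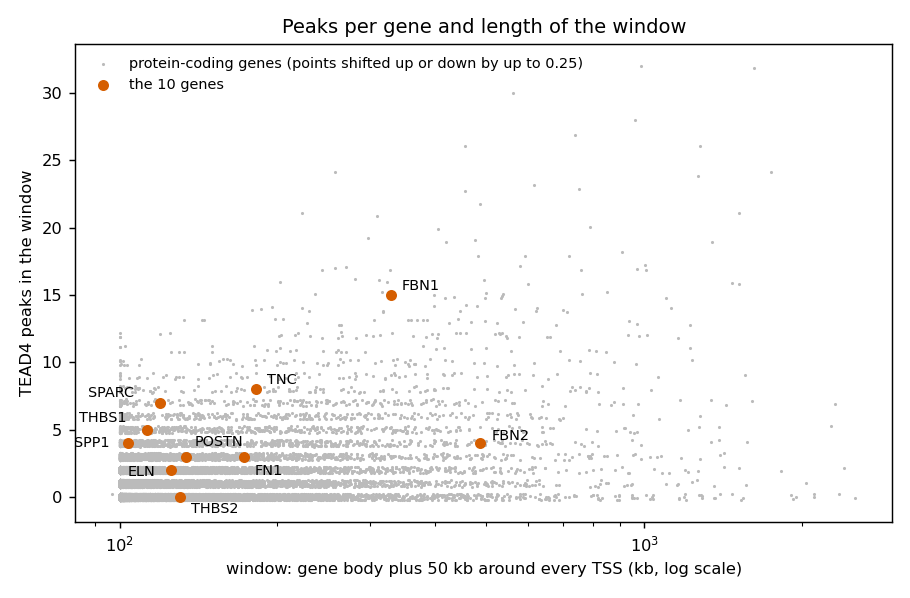
Number of TEAD4 peaks assigned to a gene (y axis) against the length of its window, the gene body plus 50 kb around every TSS (x axis, kb, log scale). Grey points are all 20033 protein-coding genes and orange points the 10 genes. FBN1 stood high with 15 peaks in 329 kb, while FBN2 had 4 in a longer window of 487.1 kb and THBS2 had 0 in 130.6 kb.

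Per length of window, SPARC had the most peaks, 5.86 per 100 kb, followed by FBN1 with 4.56, THBS1 with 4.43, TNC with 4.39 and SPP1 with 3.86. POSTN had 2.24, FN1 1.74, ELN 1.6 and FBN2 0.821 per 100 kb. The median over all protein-coding genes was 0.666 per 100 kb, and 0.899% of genes were as dense as SPARC or denser. Overlapping peaks were counted singly here. Once merged, FBN1 had 11 regions, TNC 7, THBS1 4 and SPP1 4, so the place of FBN1 depends on overlap. The order of FBN1, THBS1, TNC and SPP1 cannot be read from these counts, which carry no replicate error.

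Most of the assigned peaks lay away from promoters. The median distance to the nearest TSS of the gene was 24085 bp, and 37 of the 51 peaks were over 10 kb away. The rule takes summits up to 50 kb from a TSS, so distances of this size follow in part from the rule. They were not set against the distances at other genes. By position, 23 peaks were upstream of the gene, 15 in its introns, 3 in its untranslated or noncoding exons and 10 downstream. At least 1 peak within 2.5 kb of a TSS was present at 5 of the 10 genes, FN1, THBS1, SPARC, ELN and FBN1, where 16.6% of all protein-coding genes had one. At FN1 and FBN1 the TSS in question belonged to a short retained-intron transcript inside the gene. When only the canonical TSS was counted, the genes with a near peak were THBS1, SPARC and ELN, 3 of the 10, against 11% of all protein-coding genes by the same count.

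**Figure D2:**
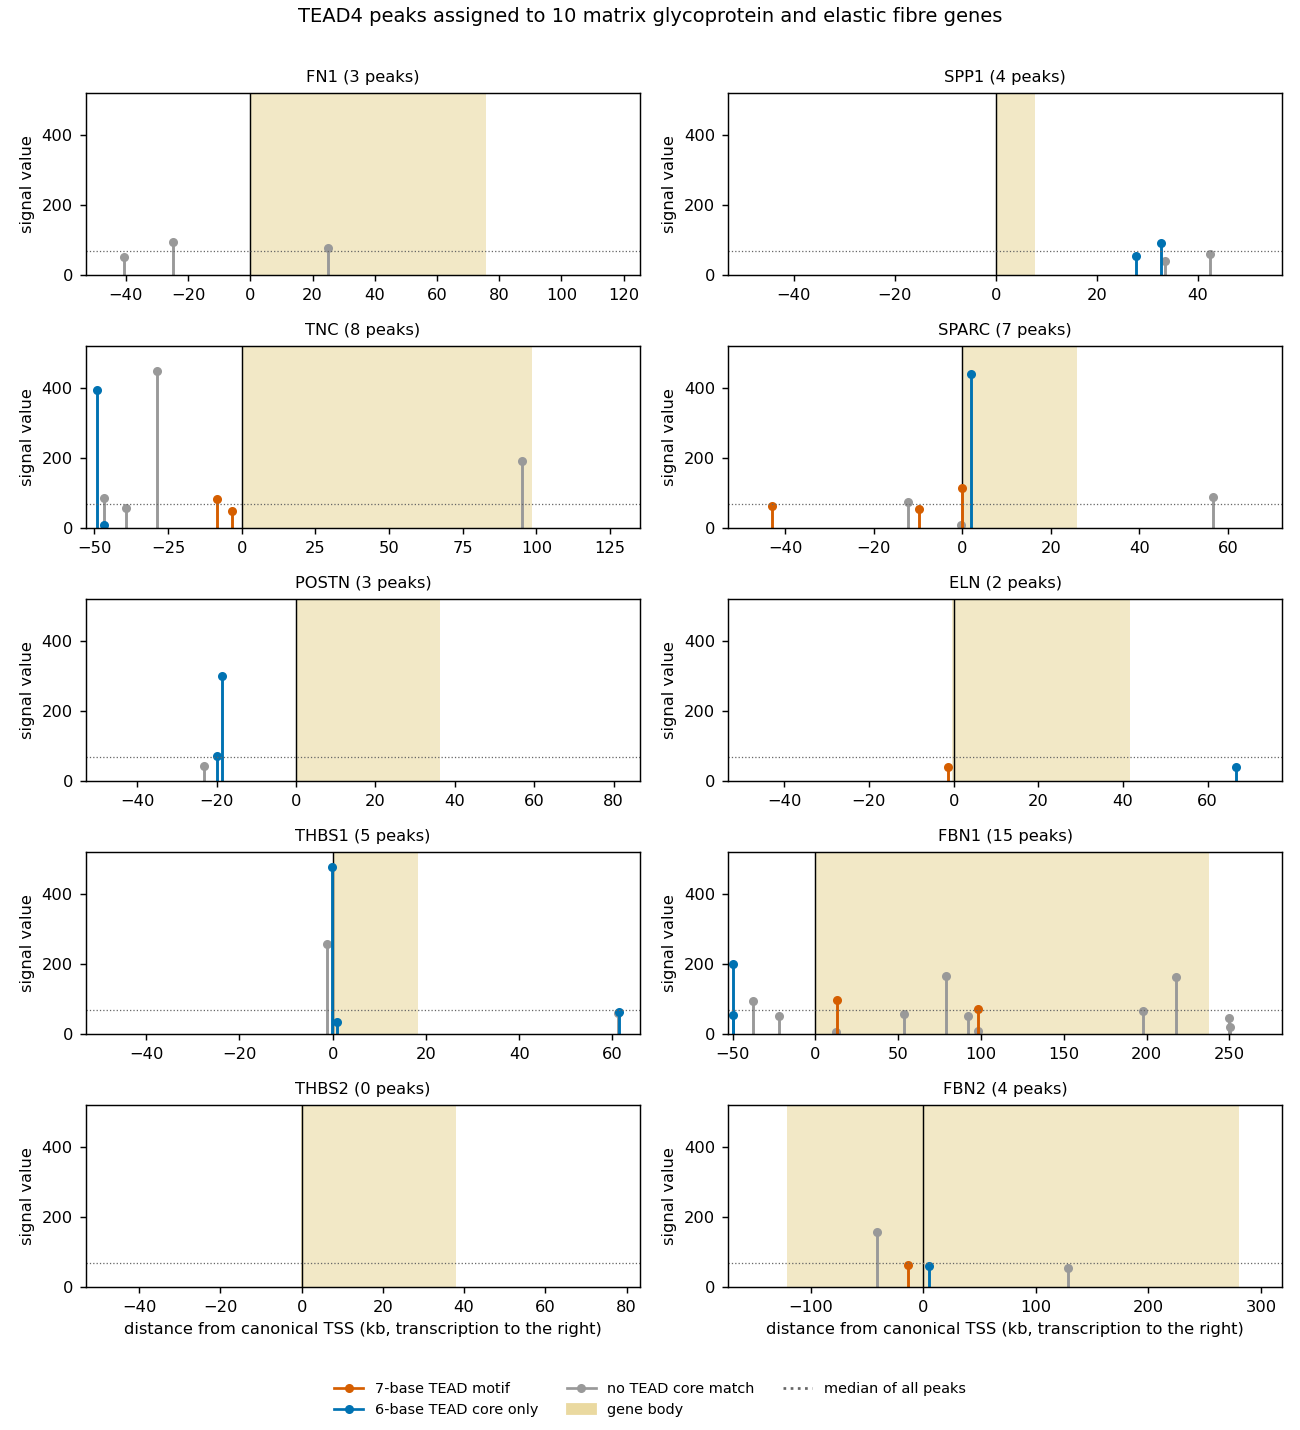
Position of each assigned peak along its gene (x axis, kb from the canonical TSS, transcription to the right) and its signal value (y axis). Each stem is 1 peak, coloured by TEAD motif within 100 bp of the summit, the shaded block is the gene body and the dotted line the median of all 21113 peaks, 68.05. The tallest peak of THBS1 stood at the canonical TSS, that of SPARC 1839 bp inside the gene and those of TNC and POSTN upstream, and the THBS2 panel is empty.

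The signal value is the peak caller's own measure of enrichment at a peak, on a scale without a stated unit. Over the 51 peaks it ran from 7.178 to 476.5 with a median of 62.55, and the whole list ran from 6.572 to 1074 with a median of 68.05. Of the 51 peaks, 23 (45.1%, Wilson 95% interval 32.3% to 58.6%) lay above the median of the list. The strongest 10% of the list held 8 of them (15.7%, 8.17% to 28%), an interval that includes 10%. Those 8 peaks belonged to 5 genes, 3 to TNC, 2 to THBS1 and 1 each to POSTN, SPARC and FBN1. Such intervals cover counting error over peaks only, and neighbouring peaks are not independent.

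FN1 (ENSG00000115414.21, chr2:215360440-215436073, minus strand) encodes fibronectin, whose fibrils serve as a scaffold for collagen and bind cells through integrins. Its 3 peaks had signal values of 50.17, 93.79 and 76.13, near the median of the list. The first 2 lay upstream, 40696 and 24821 bp from the nearest TSS, both in introns of the long noncoding RNA gene ENSG00000225166. The first was also 102 bp from the start of another long noncoding RNA, ENSG00000228618. The third was in an FN1 intron, 24989 bp into the gene from the canonical TSS. It was 1129 bp from the start of a retained-intron transcript. No CATTCC was found within 100 bp of any of these summits, while the intronic peak held 2 copies of TGACTCA, centred 53 and 15 bp from its summit. No peak was called at the canonical FN1 promoter.

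TNC (ENSG00000041982.17, chr9:115019575-115118207, minus strand) encodes tenascin-C, a large matricellular glycoprotein that is scarce in most adult tissue and rises at wounds. Of its 8 peaks, 7 were upstream and all of these were in introns of DELEC1, a long noncoding RNA gene that overlaps the locus. The strongest had a signal value of 448, 204th of the whole list, and lay 28615 bp upstream. Next came a peak of 395, 324th of the list, which lay 49123 bp upstream and so just inside the 50 kb limit. The latter held a TGAATCA match 1 bp from its summit.

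The 2 TNC peaks closest to the promoter, 8372 and 3131 bp upstream, were weaker at 81.9 and 48.7, and both held ACATTCC. At the first of them a second copy of the core followed, so that 2 cores were centred 4.5 bp to either side of the summit. One peak lay inside the gene, in an intron 94978 bp from the canonical TSS, with a signal value of 192. The remaining TNC peaks, 39291 to 46774 bp upstream, had signal values of 56.5, 84.3 and 8.37. The lowest was overlapped by the stronger peak beside it and had a q-value of 0.65.

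POSTN (ENSG00000133110.15, chr13:37562583-37598844, minus strand) encodes periostin, a matricellular protein that promotes collagen cross-linking. Its 3 peaks stood together 18548 to 23050 bp upstream, and none was in the gene. From the nearest to the farthest, their signal values were 299.7, 72.1 and 44.4. The strongest ranked 747th of the list and had a core match centred 10.5 bp from its summit. The middle peak held both a core and a TGAGTCA match, and the farthest held neither.

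THBS1 (ENSG00000137801.11, chr15:39581079-39599466, plus strand) encodes thrombospondin-1, which can release TGF-β from its latent complex. It had the strongest of the 51 peaks, with a signal value of 476, 171st of the whole list. The summit was 39 bp upstream of the TSS, the peak covered the TSS, and the core GGAATG was centred 4.5 bp from the summit. A further strong peak of 256.3 lay 1179 bp upstream and had no core or AP-1 match. The peak 866 bp into the gene, in an intron, had a value of 35.

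The other 2 peaks of THBS1 overlapped each other in an intron of FSIP1 and had signal values of 59.5 and 62.1. They were 61201 and 61450 bp from the canonical THBS1 TSS, were assigned through the start of a retained-intron transcript of THBS1, and were 24037 and 24286 bp from an FSIP1 TSS. Around THBS1 the strong signal was thus at the promoter, unlike at TNC and POSTN, where the strong peaks were distal.

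THBS2 (ENSG00000186340.17, chr6:169215780-169254050, minus strand) encodes thrombospondin-2, a relative of thrombospondin-1 that lacks its TGF-β releasing activity. It was the only one of the 10 genes with no peak. The nearest peak of the list, chr6:169172429-169172872, had a signal value of 98.3 and its summit was 50.79 kb from a THBS2 TSS, just past the limit. THBS2 had a promoter entry in the RefSeq table with CATTCC, and 14% of the 35116 single entries of the same length had it.

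SPP1 (ENSG00000118785.15, chr4:87975667-87983532, plus strand) encodes osteopontin, a secreted phosphoprotein that binds integrins. All 4 of its peaks were downstream, and all 4 were closer to a TSS of PKD2, the polycystin-2 gene, than to one of SPP1. Their signal values, in order along the chromosome, were 54.7, 92.2, 38.8 and 59.4. The strongest was 253 bp from a PKD2 TSS and 8 bp from a TSS of the long noncoding RNA gene ENSG00000286618. No peak was found upstream of SPP1 or in its body.

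SPARC (ENSG00000113140.11, chr5:151661096-151686975, minus strand) encodes osteonectin, a collagen-binding matricellular protein. It had 7 peaks, of which 3 lay within 2.5 kb of a TSS and all 3 covered one. The strongest had a signal value of 441, 214th of the list, with its summit 154 bp downstream of the start of the transcript SPARC-209 and 1839 bp from the canonical TSS. There the core and TGAGTCA were centred 4.5 and 19 bp from the summit. At the canonical TSS a peak of 114 had its summit 24 bp upstream and held ACATTCC, centred 9 bp from the summit. Another peak there, with a signal value of 7.18 and a q-value of 0.774, was overlapped by the stronger one.

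Farther from the SPARC promoter, 3 peaks lay 9730, 12324 and 42872 bp upstream with signal values of 54.6, 73.5 and 62.6. The first and the last of these held ACATTCC, and the last had 3 copies of the core. It was closer to ATOX1, the copper chaperone gene, than to SPARC. One peak of 89.5 was downstream. The noncoding gene CLMAT3 overlaps the SPARC promoter, so peaks there could belong to either gene.

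ELN (ENSG00000049540.19, chr7:74027789-74069907, plus strand) encodes tropoelastin, the monomer of elastin. It had 2 peaks, with signal values of 39.3 and 41.6, both below the median of the list. The first lay 832 bp upstream of the nearest TSS and 1216 bp upstream of the canonical one, with ACATTCC centred 47 bp from the summit. The second was in an intron of LIMK1, a kinase that acts on cofilin, 661 bp from a LIMK1 TSS, and held 2 copies of the core. Neither had the highest IDR score (irreproducible discovery rate, scaled so that 1000 is the highest), as their scores were 850 and 956.

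FBN1 (ENSG00000166147.15, chr15:48408313-48645721, minus strand) encodes fibrillin-1, the main protein of adult microfibrils, which also anchor latent TGF-β. With 15 peaks in 11 separate regions it had the most of the 10 genes, and 0.29% of all protein-coding genes had as many peaks or more. By merged regions the corresponding share was 0.639%. Among the 1251 genes with a window of 300 kb or more the median was 2 peaks, and 49 of them had at least as many as FBN1. By position, 9 of the peaks were in the gene, 4 upstream and 2 downstream.

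The strongest FBN1 peak, with a signal value of 200.6, lay 49460 bp upstream, close to the limit, and was nearer to CEP152, a centrosomal protein gene. Its 2 cores lay on opposite strands, centred 41.5 and 29.5 bp from the summit. Inside the gene, peaks of 165, in an intron 78840 bp from the canonical TSS, and of 163, in an untranslated or noncoding exon 217539 bp from it, were the strongest. The latter was 407 bp from the start of a retained-intron transcript. Intronic peaks of 96.3 and 73.3, 12899 and 98226 bp from the canonical TSS, held ACATTCC. An intronic peak of 66 with its summit 197857 bp from the canonical TSS had 3 matches to TGANTCA, the nearest centred 1 bp from the summit. It was 2440 bp from the start of another retained-intron transcript. No peak was within 10 kb of the canonical FBN1 TSS.

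FBN2 (ENSG00000138829.14, chr5:128257909-128659185, minus strand) encodes fibrillin-2, which predominates in developing tissue. Its annotated body was longer than that of FBN1, 401.3 against 237.4 kb, and it had 4 peaks. All were in introns, with signal values of 158.6, 62.6, 59.7 and 56.3. The strongest, 41106 bp upstream of the canonical TSS, lay in a long transcript that starts farther upstream and also in an intron of SLC27A6, a fatty acid transport protein gene. It had no core or AP-1 match. Of the 1251 genes with a window of 300 kb or more, 846 had as few peaks as FBN2 or fewer.

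Some assigned peaks were nearer to another gene. The nearest protein-coding TSS belonged to the gene itself for 41 of the 51 peaks, and when TSSs of long noncoding RNAs were counted too, for 26. The 10 exceptions among coding genes were the 4 peaks at PKD2, 2 at FSIP1, 2 at CEP152, 1 at ATOX1 and 1 at LIMK1. Which gene a peak acts on was not tested.

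The shares of assigned peaks with a TEAD, AP-1 or RUNX motif were lower than or near those of the list, with wide intervals. Among the 51 peaks, 9 had ACATTCC no more than 100 bp from the summit (17.6%, Wilson 95% interval 9.57% to 30.3%), as did 23% of all peaks. For CATTCC the shares were 45.1% (32.3% to 58.6%) and 46.8%, and within 20 bp of the summit 27.5% and 26.7%. The AP-1 motif TGANTCA was found in 25.5% (15.5% to 38.9%) against 33.7%, and its form TGACTCA, counted on either strand, in 13.7% (6.81% to 25.7%) against 25.4%. Both the core and TGANTCA were present in 4 of the 51 peaks (7.84%) against 13.4% of the list, and neither in 19 (37.3%) against 32.9%. The RUNX motif TGTGGTT was found in 5.88% (2.02% to 15.9%) against 9.53%. CCTTACA, the TEAD motif written backwards, matched 1 of the 51 peaks and 2% of the list. The interval of the assigned peaks included the share of the whole list for each of these motifs, for TGACTCA only just, and 51 peaks do not show that the shares are alike.

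The 9 peaks with ACATTCC belonged to SPARC (3), TNC and FBN1 (2 each), ELN and FBN2 (1 each), and their signal values ran from 39.3 to 114. None of the 8 peaks in the strongest 10% of the list held it (0%, Wilson upper bound 32.4%), where 33.1% of the strongest 10% of the whole list did. The bound lies just below that share, but it rests on 8 peaks that are not all independent, and the difference was not tested. CATTCC was found in 5 of these 8 peaks (62.5%, 30.6% to 86.3%) and in 63.8% of the strongest 10% of the list. With 8 peaks these shares were not precise. In the RefSeq promoter table (GRCh38.p14, 250 bases before to 50 after the start), 9 of the 10 genes had an entry, ELN being the exception. ACATTCC was present only in the SPARC promoter among these 9 genes, against 3.46% of promoters, and TGANTCA only in that of POSTN, against 7.71%. CATTCC was present in the promoters of 4 of the 9 genes, FBN1, SPARC, THBS1 and THBS2, against 14% of promoters. A gene was counted when any of its promoter entries matched, whereas the percentages are over single entries. Counts and percentages are therefore not like for like.

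Other genes of the same matrix were described by the same rule. Of 42 further elastic fibre, matricellular and adhesive glycoprotein genes, 29 (69%) had a peak, with a median of 1 peak and 0.974 peaks per 100 kb. These were 11 of 17 elastic fibre and microfibril genes, 8 of 13 matricellular genes and 10 of 12 adhesive glycoprotein genes. Over all protein-coding genes, 56.2% had a peak, with a median of 1 peak and 0.666 peaks per 100 kb. With 12 to 17 genes a list, shares near that background cannot be told from it. SPOCK1, a testican proteoglycan gene, had the most, 18, followed by EDIL3 with 10, LTBP3 with 7, and LTBP1, TGFBI and TNXB with 6 each. The 13 without a peak included EMILIN1, FBLN1, FBLN5 and MFAP5. The 10 genes had a median of 4 peaks and 3.05 per 100 kb, but they were named with results of these data known, and the difference was not tested. All 11 fibrillar collagen genes had a peak, against 56.2% of all protein-coding genes. Their median was 5, with the most at COL5A2 (13) and the fewest at COL11A1 and COL24A1 (1 each).

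Among marker genes of cell types, a peak was assigned to 9 of 10 genes of stellate cells and myofibroblasts, LRAT being without one, to 1 of 8 hepatocyte genes (ASGR1), 4 of 5 endothelial, 3 of 5 macrophage and leukocyte and 5 of 5 epithelial genes, where 56.2% of all protein-coding genes had one. With 5 to 10 genes a list, shares near that background cannot be told from it. ALB, APOA1 and HNF4A, which define hepatocytes, had none. Peaks near a marker do not measure its expression, so the label of the cells was not checked by expression.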

How the data were processed

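TEAD4 ChIP-seq was made from LX-2 cells treated with DMSO (3 replicates, 2 input samples, single-end DNBseq reads). Following the methods of the study, the authors mapped reads to hg38 with Chromap and ran the ENCODE IDR pipeline on replicates 1 and 3. The peak caller is not given in the sources used here, and the name of the list gives an IDR threshold of 0.01. The deposited score is the scaled IDR (830 to 1000 in the list), the deposited signal value is the caller's enrichment per peak, and the deposited −log10 q-value is per peak, with 19947 of 21113 peaks on the highest value, 4.76. The meanings were read from the layout and values of the list, which has no header.

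Summits (start plus offset) were assigned to genes of GENCODE release 44 by position, and matches to each motif or its reverse complement were sought up to 100 bp to either side of the summit. The genes and gene lists were chosen with earlier results of these data known. All peaks of each gene but FBN1 were described, naming the strongest and those near a TSS. For FBN1, which had 15, only some were described. The sequence was shown around the strongest summit of each gene and at peaks within 2.5 kb of a TSS with ACATTCC. Where the summit lay in an exon, as at SPARC, it was cut to 30 bases placed around the motif matches. No peak held 2 copies of ACATTCC. Of the other matrix glycoprotein genes, the 5 with the most peaks were named, with ties. LTBP1, TGFBI and TNXB tied. The EMILIN1, FBLN1, FBLN5 and MFAP5 examples were chosen after their values were seen. Shares carry Wilson 95% intervals for counting error, no test was made, and the depth of the samples is unknown. Assignment and motif search were tested on simulated data. Python 3.11.15, numpy 2.4.6, pandas 2.3.3, scipy 1.17.1, pysam 0.24.0 and matplotlib 3.10.9 were used.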

Additional observations from a re-analysis of the deposited data

How the results depend on the processing

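The counts depended most on the distance and on which peaks were used. Within 10 kb of a TSS or in the gene body, 25 peaks were assigned to the 10 genes in place of 51, POSTN and SPP1 had none, the share with ACATTCC was 32% in place of 17.6%, and 17 in place of 29 other matrix glycoprotein genes had a peak. With only peaks above the median signal value of the list, 23 peaks remained, with a median signal value of 113.9, both by construction. Genes with a peak near a TSS numbered 3 in place of 5 when only canonical TSSs, or only those of protein-coding transcripts (an alternative added after seeing the data), were counted. The TEAD share was 45.1% with CATTCC and 37.3% with ACATTCC or GCATTCC (added after seeing the data), and the AP-1 share was 13.7% in place of 25.5% with TGACTCA alone. The share of all protein-coding genes with a peak, 56.2% as reported, was 34% at 10 kb, 43.7% at 25 kb, 72% at 100 kb, 55.2% without the gene body, 48.7% with peaks of the highest IDR score only, 38.8% with peaks above the median in signal and 53.2% with canonical TSSs. The number of the 10 genes with a peak was between 7 and 10 in all alternatives run for it, and THBS2 gained 2 peaks at 100 kb. Of 80 recomputed values over the genes together, 63 stayed within the interval or within 1.5 times of the reported value, as did 65 of 90 for single genes. Leaving out peaks with a q-value above 0.05, also added after seeing the data, gave 47 peaks, and counting only TSSs of protein-coding transcripts gave 45. No paired analysis was possible because replicates 1 and 3 were joined in 1 list without values of their own, which also prevented leaving out either replicate.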

Other observations

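Of the 51 peaks, 4 had a q-value above 0.05, 1 each at TNC and SPARC and 2 at FBN1, with signal values from 7.18 to 10.3. All 4 were overlapped by a stronger peak, as were 661 of the 674 such peaks in the whole list, and 3 of the 4 carried the highest IDR score. In the whole list CATTCC was found in 16% of these peaks, against 46.8% of all peaks. Of the 51 peaks, 46 shared the highest −log10 q-value of the list, so the q-value does not order them, and the signal value was used for that.

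The 10 peaks within 2.5 kb of a TSS had a median GC content of 56.2% around the summit and a median signal value of 95, against 43.3% and 62.55 over all 51. These values are descriptions of few peaks, 3 of which are at THBS1 and 3 at SPARC.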
